A study of Mus musculus with 9 samples.

Results

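The 10 genes described here were grouped as genes of the sinusoidal endothelial cells of the liver, although some are shared with other endothelium or blood cells: Stab1, Stab2, Clec4g, Lyve1, Kdr, Pecam1, Fcgr2b, Oit3, Bmp2 and Vwf. They were found by symbol in a table of 25781 genes from mouse liver RNA sequencing, where all 10 were present and all 10 passed the filter on low values. The livers came from Swiss mice aged 10 to 12 weeks in 3 groups of 3 libraries: mice given β-CYP at 40 mg/kg with sodium selenite (Na2SeO3) at 50 µg/kg, called the selenite group, mice given β-CYP alone at the same dose, and controls. Per the series' text the study concerns selenium against liver injury, with β-CYP as the injury and the selenite group as the repair. What β-CYP stands for is not written in the labels. They give neither the sex of the mice nor whether replicate libraries are from different mice, so the p-values measure only the spread between libraries, and this may be technical.

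Sinusoidal endothelial cells line the blood channels that run between plates of hepatocytes. Their wall is perforated by fenestrae, and their scavenger, lectin and Fc receptors clear waste proteins, hyaluronan and immune complexes from the blood. They also secrete BMP ligands, to which hepatocytes respond by making the iron hormone hepcidin. In injured liver these cells can lose their fenestrae and take on traits of ordinary capillaries, which is called capillarisation.

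Promoters of 5 of the 10 genes (Stab1, Stab2, Clec4g, Kdr and Fcgr2b) were in the RefSeq table used, as 250 bases before to 50 bases after the gene's start in build GRCm38.p6. Those of the stabilins are shown because the pair moved in opposite directions in β-CYP, and that of Fcgr2b because it fell in the selenite group against both others. All 3 are on the minus strand and read 5′ to 3′. Capitals mark CAGGAA or its reverse complement TTCCTG, a sequence that ETS factors, a family active in endothelium, can bind.
Stab1, chr14:31168592-31168891: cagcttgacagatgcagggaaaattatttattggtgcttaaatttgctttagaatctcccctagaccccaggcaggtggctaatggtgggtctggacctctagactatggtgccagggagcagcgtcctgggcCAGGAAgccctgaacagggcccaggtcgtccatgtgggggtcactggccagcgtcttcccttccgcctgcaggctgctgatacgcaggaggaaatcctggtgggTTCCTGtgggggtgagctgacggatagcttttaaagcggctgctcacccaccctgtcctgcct
Stab2, chr10:87007893-87008192: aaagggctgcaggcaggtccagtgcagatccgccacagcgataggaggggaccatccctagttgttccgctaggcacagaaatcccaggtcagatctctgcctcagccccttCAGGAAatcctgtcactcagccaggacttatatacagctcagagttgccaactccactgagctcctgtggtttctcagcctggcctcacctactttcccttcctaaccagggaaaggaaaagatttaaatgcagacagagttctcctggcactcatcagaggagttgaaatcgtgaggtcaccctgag
Fcgr2b, chr1:170976022-170976321: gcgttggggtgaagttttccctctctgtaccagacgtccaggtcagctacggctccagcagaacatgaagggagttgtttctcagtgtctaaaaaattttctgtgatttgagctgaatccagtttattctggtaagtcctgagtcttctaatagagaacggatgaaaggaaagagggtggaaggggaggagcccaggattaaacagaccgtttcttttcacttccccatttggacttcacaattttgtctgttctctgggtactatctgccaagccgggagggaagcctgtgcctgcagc
CAGGAA or TTCCTG was found in 3 of the 5 windows, at 2 places in Stab1 and at 1 each in Stab2 and Clec4g. Either string was in 30.6% of all 32851 promoter windows of this length. CCACCC, a sequence that KLF factors can bind, was in 4 of the 5 and in 31.5% of all. The exact string AGATAA, which the factors that include Gata4 can bind, was in 0 of the 5 and in 11.2% of all. Each was searched on both strands. Variants of these strings that the same factors can bind were not searched, so a window without a match may still hold such a variant. Such matches describe the letters and do not show binding.

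Levels are given as scaled counts, which are reads divided by a size factor of the library. The libraries held 28630269 to 36029560 reads. Control replicate 2 stood apart in AY036118, an rRNA-like transcript, with 1805976 reads against 43988 and 42232 in the other controls. Differences were tested with limma over 20145 genes, on log2(scaled count + 1), and a gene is said to rise or fall where its adjusted p was under 0.05. Each log2 change below is from this fit, with 3 libraries per group. Per kilobase of exon (lengths from GENCODE M21, build GRCm38), the mean level over all libraries was highest for Clec4g, at 769.8 scaled counts, followed by Oit3 at 402, Stab2 at 289.9 and Fcgr2b at 262. It was lowest for Vwf, at 21.2, and lay between 118 and 182 for the other 5. All 10 genes were thus present in every library.

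The 10 genes did not move as a block. In β-CYP against control, Stab1, Pecam1, Oit3 and Vwf rose and Stab2 and Kdr fell, so that 60% were called, where 16.3% of all genes tested were (7.72% higher, 8.58% lower). In the selenite group against β-CYP, Stab2 and Lyve1 rose and Fcgr2b and Oit3 fell, which is 40%, beside 23.9% of all genes (11.6% higher, 12.3% lower). In the selenite group against control, Lyve1 rose and Kdr, Fcgr2b, Oit3 and Bmp2 fell, which is 50%, beside 28.9% of all genes (14.4% higher, 14.5% lower). Calls are more frequent among well covered genes: of the 5835 genes with a mean level between those of Vwf and Stab2, 24.3%, 35.9% and 43.3% were called in the 3 comparisons in that order, which puts the last 2 shares of the members near this background. The 10 genes were chosen with earlier results of these data known, so none of their shares can be read as an excess over the background. The comparisons share their libraries in pairs and are not independent. The shares over all genes, and the medians over all genes given next, are also the background for the lists of related genes below.

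The median log2 change of the 10 genes was -0.0063 in β-CYP against control, -0.17 in the selenite group against β-CYP and -0.018 in the selenite group against control, beside -0.0013, 0.017 and 0.027 over all genes. Groups without overlap were found for 8, 6 and 6 of the 10 in that order, beside 31.6%, 37.8% and 41.8% of all genes. The sum of the 10 depended on the scaling. It was 11765 to 11873 scaled counts in the selenite group, 12340.3 to 12479 in β-CYP and 12497 to 12819 in control, but 0.0385% to 0.0389% of all reads in the selenite group, 0.0369% to 0.0374% in β-CYP and 0.0356% to 0.039% in control. The control library at 0.0356% was replicate 2, whose total includes 1805976 reads of AY036118. In whole liver, fewer cells of a type and less RNA per cell cannot be told apart. With libraries scaled to equal totals, the median log2 change of all genes was 0.14 in the selenite group against β-CYP, where 3200 genes rose and 1324 fell in place of 2337 and 2468. It was 0.15 against control, where 3948 rose and 1757 fell in place of 2908 and 2915.

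**Figure D1:**
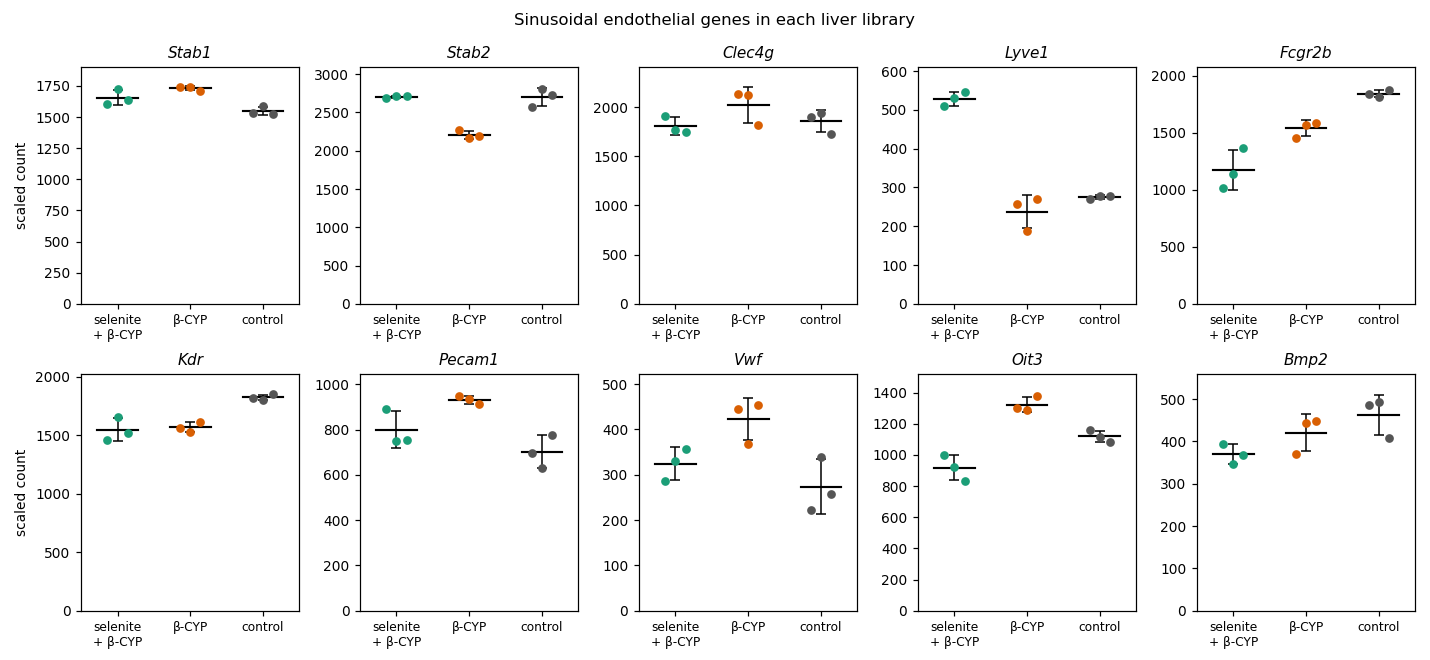
Scaled counts (y axis, from 0) of the 10 genes in the selenite group, in β-CYP and in control (x axis); points are libraries, long bars means and whiskers SD (n = 3). Lyve1 lies at 510.1 to 545 in the selenite group, above every other library, and Stab2 is lowest in β-CYP, at 2165 to 2265.

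The stabilins are large scavenger receptors that take up modified lipoproteins and other waste, and Stab2 (ENSMUSG00000035459) is also the main endocytic receptor for hyaluronan. Stab2 had 2689, 2710.0 and 2709 scaled counts in the selenite group, 2265, 2165 and 2187 in β-CYP, and 2578, 2812 and 2730.4 in control. The β-CYP libraries were below all 6 others, and the selenite libraries lay within the control range. Stab2 fell in β-CYP against control (log2 change -0.29 ± 0.04 (SE), adjusted p = 0.000686) and rose in the selenite group against β-CYP (log2 change 0.29 ± 0.04 (SE), adjusted p = 0.000495). Between the selenite group and control no difference was called (log2 change -0.0013 ± 0.04 (SE), 95% interval -0.091 to 0.088, adjusted p = 0.987), although with equal totals it was 0.14 (adjusted p = 0.0459, range 0.0459 to 1 over the alternatives), below the shift of 0.15 for the median gene.

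Stab1 (ENSMUSG00000042286), which macrophages also express, had 1605, 1722 and 1641 scaled counts in the selenite group, 1740.1, 1739.8 and 1713 in β-CYP, and 1535, 1588 and 1526 in control. Control was the lowest group without overlap, while the selenite and β-CYP libraries overlapped. Stab1 rose 1.12-fold in β-CYP against control (log2 change 0.16 ± 0.041 (SE), adjusted p = 0.025). That call was lost with equal totals, where the change was 0.17, and without control replicate 1 or 3 or any of the 3 β-CYP libraries (0.15 to 0.17, with adjusted p 0.0142 to 0.0707 over all alternatives). No change was called in the selenite group against β-CYP (log2 change -0.065 ± 0.041 (SE), adjusted p = 0.315) or against control (log2 change 0.10 ± 0.041 (SE), adjusted p = 0.117).

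Within a library the scaling cancels in a ratio of both stabilins. Stab1 over Stab2 was 0.597, 0.635 and 0.606 in the selenite group, 0.768, 0.804 and 0.783 in β-CYP and 0.595, 0.565 and 0.559 in control. The β-CYP libraries were above all others and the selenite libraries just above the controls. In each of the 3 comparisons the exact two-sided permutation test gave p = 0.1, the smallest that 3 libraries against 3 allow. The 6 ratios computed here were chosen after the values had been seen, and their p-values are not adjusted.

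Of the other ratios, Pecam1 over Kdr was 0.611, 0.454 and 0.495 in the selenite group, 0.609, 0.612 and 0.565 in β-CYP and 0.383, 0.35 and 0.42 in control. The selenite group overlapped β-CYP (exact permutation p = 0.3), and control was below both (p = 0.1 by the same exact test). Oit3 over Clec4g was 0.52, 0.522 and 0.477 in the selenite group, 0.611, 0.606 and 0.759 in β-CYP and 0.61, 0.576 and 0.628 in control. β-CYP overlapped control (exact permutation p = 0.5), and the selenite group was below both (p = 0.1 by the same exact test). Fcgr2b over Stab1 was 0.633, 0.66 and 0.831 in the selenite group, 0.837, 0.902 and 0.927 in β-CYP and 1.2, 1.14 and 1.23 in control, with the 3 groups separate (exact permutation p = 0.1 in each comparison).

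**Figure D2:**
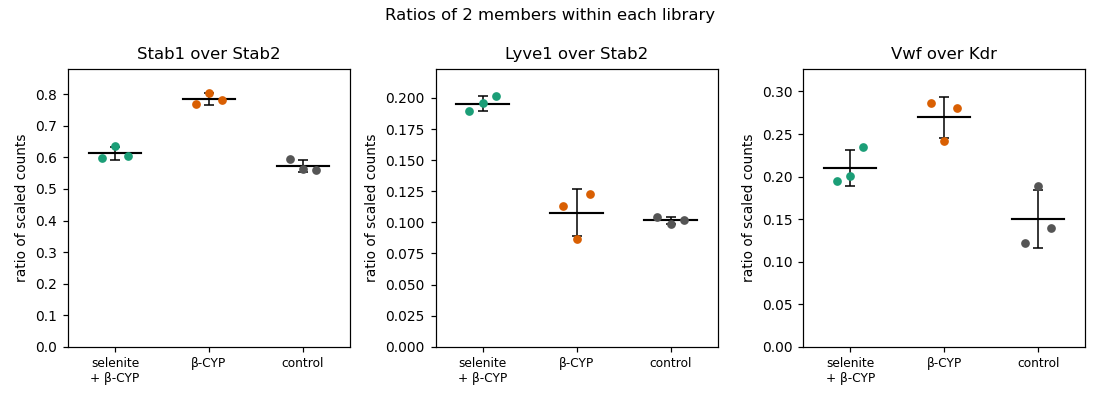
Ratio of scaled counts (y axis, from 0) for Stab1 over Stab2, Lyve1 over Stab2 and Vwf over Kdr in the selenite group, in β-CYP and in control (x axis); points are libraries, long bars means and whiskers SD (n = 3). Stab1 over Stab2 is highest in β-CYP, at 0.768 to 0.804, and Lyve1 over Stab2 is highest in the selenite group, at 0.19 to 0.201.

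Lyve1 (ENSMUSG00000030787), a hyaluronan receptor of lymphatic vessels, sinusoids and some macrophages, had the largest change of the 10 in both comparisons of the selenite group. Lyve1 had 510.1, 530.4 and 545 scaled counts in the selenite group, 257, 188 and 269 in β-CYP, and 269, 278 and 278 in control. Every selenite library was far above the other 6, and the β-CYP libraries lay below the controls, with the highest of them close to the lowest control. Lyve1 rose 2.24-fold in the selenite group against β-CYP (log2 change 1.17 ± 0.13 (SE), adjusted p = 0.000102) and 1.92-fold against control (log2 change 0.94 ± 0.13 (SE), adjusted p = 0.000345). The difference of β-CYP from control was not called (log2 change -0.22 ± 0.13 (SE), adjusted p = 0.289) and was -0.064 without β-CYP replicate 2 (adjusted p = 0.672, range 0.154 to 0.672 over the alternatives). Lyve1 over Stab2 was 0.19, 0.196 and 0.201 in the selenite group, 0.113, 0.0868 and 0.123 in β-CYP and 0.104, 0.0988 and 0.102 in control, with no overlap of the selenite group with either other group (exact permutation p = 0.1, the smallest possible, for both). β-CYP and control overlapped on it (exact permutation p = 0.7).

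Markers of other cells that carry Lyve1 were read beside it. Of 4 lymphatic markers, 0 were called by limma in the selenite group against β-CYP. An unadjusted p under 0.05 was found for 1, Prox1, which was lower (log2 change -0.090, adjusted p = 0.114). Against control 1 rose, which was Prox1 (log2 change 0.47, adjusted p = 8.25e-06). The median log2 change of these markers was 0.43 in the selenite group against β-CYP and 0.52 against control. The lymphatic chemokine Ccl21a averaged 64 ± 14.9 scaled counts in the selenite group, 47.7 ± 12.3 in β-CYP and 42.7 ± 7.55 in control. Mmrn1, of the lymphatic extracellular matrix, averaged 30.2 ± 4.8 scaled counts in the selenite group, 19.5 ± 9.85 in β-CYP and 19.1 ± 4.4 in control. Podoplanin (Pdpn) averaged 4.96 ± 1.35 scaled counts in the selenite group, 5.96 ± 6.74 in β-CYP and 6.79 ± 3.03 in control, so that all 3 had few reads. The fourth marker, Prox1, which hepatocytes also express, made up nearly all of the list's sum of 5378 to 5687 in the selenite group, 5547 to 5995 in β-CYP and 3911 to 4025 in control. Of 9 Kupffer cell markers, 4 rose and 0 fell in the selenite group against β-CYP, and 6 rose and 0 fell against control (median log2 changes 0.17 and 0.29, in that order). Among the 4, the scavenger receptor Marco averaged 601 ± 13.3 scaled counts in the selenite group, 148 ± 19.5 in β-CYP and 184 ± 21.3 in control (log2 change 2.02, adjusted p = 1.62e-06 in the selenite group against β-CYP), and Clec4f, a Kupffer cell lectin, averaged 3636 ± 136 scaled counts in the selenite group, 3150.0 ± 112 in β-CYP and 3118 ± 145 in control. The Kupffer list summed to 16417 to 16736 in the selenite group, 14132 to 14465 in β-CYP and 13049 to 13725 in control, and no marker of either list was at 0 in all libraries. The part of lymphatic vessels and macrophages in the Lyve1 result was not tested.

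Clec4g (ENSMUSG00000074491), also called LSECtin, is a C-type lectin of sinusoidal endothelium. Clec4g had 1914, 1767 and 1746 scaled counts in the selenite group, 2131, 2119.7 and 1815 in β-CYP, and 1898, 1939 and 1727 in control. The 3 groups overlapped, with β-CYP replicate 3 well below the other β-CYP libraries. It was not called in β-CYP against control (log2 change 0.12 ± 0.073 (SE), adjusted p = 0.325), in the selenite group against β-CYP (log2 change -0.16 ± 0.073 (SE), adjusted p = 0.163) or in the selenite group against control (log2 change -0.035 ± 0.073 (SE), 95% interval -0.20 to 0.13, adjusted p = 0.771). Without β-CYP replicate 3 it fell in the selenite group against β-CYP, with a log2 change of -0.23 (adjusted p = 0.0339, range 0.0339 to 0.838 over the alternatives).

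Fcgr2b (ENSMUSG00000026656) encodes the inhibitory Fc gamma receptor, which in sinusoids takes up small immune complexes and which B cells and macrophages also carry. Fcgr2b had 1016, 1137 and 1363 scaled counts in the selenite group, 1457, 1569 and 1587 in β-CYP, and 1840.3, 1815 and 1874 in control. The groups formed 3 steps without overlap, lowest in the selenite group and highest in control, and the selenite libraries were spread widely. It fell in the selenite group against control to 0.631 of the control level (log2 change -0.66 ± 0.092 (SE), adjusted p = 0.000439) and in the selenite group against β-CYP (log2 change -0.40 ± 0.092 (SE), adjusted p = 0.0106). The second call was lost with equal totals (-0.27, adjusted p = 0.0872) and when only these groups were fitted (-0.40, adjusted p = 0.0603, range 0.000773 to 0.0872 over all alternatives). In β-CYP against control Fcgr2b was not called (log2 change -0.26 ± 0.092 (SE), adjusted p = 0.0882).

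Of 5 other genes of Fc receptors and their partners, 2 rose and 0 fell in β-CYP against control, and 3 rose and 0 fell in the selenite group against control. The median log2 changes of this list were 0.40, 0.092 and 0.50 in β-CYP against control, the selenite group against β-CYP and the selenite group against control. Between the selenite group and β-CYP, 0 were called by limma and 0 had an unadjusted p under 0.05. Fcgr4, an activating receptor of myeloid cells, averaged 281 ± 12.9 scaled counts in the selenite group, 244 ± 19.4 in β-CYP and 131 ± 5.88 in control (log2 change 0.88, adjusted p = 0.000168 in β-CYP against control). Fcgr1, the high-affinity activating receptor, averaged 135 ± 23.7 scaled counts in the selenite group, 138 ± 13.1 in β-CYP and 85.9 ± 12.5 in control (log2 change 0.69, adjusted p = 0.0224 in the same comparison). B cell markers summed to 44.1 to 60.8 in the selenite group, 11.2 to 25 in β-CYP and 34.3 to 50.3 in control, and the part of B cells and macrophages in the Fcgr2b result was not tested.

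Oit3 (ENSMUSG00000009654), a gene used as a marker of this endothelium, had 996, 922 and 834 scaled counts in the selenite group, 1301, 1285 and 1377 in β-CYP, and 1157, 1117 and 1085 in control. The groups were separate, highest in β-CYP and lowest in the selenite group. Oit3 fell in the selenite group against β-CYP (log2 change -0.53 ± 0.067 (SE), adjusted p = 0.000322), a call that held under every alternative tried, and against control (log2 change -0.29 ± 0.067 (SE), adjusted p = 0.00948), a call lost with equal totals (-0.15, adjusted p = 0.208, range 0.00419 to 0.208). Its rise in β-CYP against control was close to the threshold (log2 change 0.24 ± 0.067 (SE), adjusted p = 0.0396). The call was lost in 10 of 17 alternatives: with equal totals (0.25), equal medians (0.23), no filter on low values (0.24) or a replicate block (0.24), and without any 1 of the 6 libraries (0.21 to 0.26, with adjusted p 0.0174 to 0.125 over all alternatives).

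Of 15 further genes of sinusoidal endothelium, 3 rose and 2 fell in β-CYP against control, 1 rose and 4 fell in the selenite group against β-CYP, and 1 rose and 4 fell in the selenite group against control. Their median log2 changes were 0.066, -0.081 and -0.064 in that order. Of all genes tested, 16.3%, 23.9% and 28.9% were called in these comparisons, with medians of -0.0013, 0.017 and 0.027. Of genes at the level of the 10 members, 24.3%, 35.9% and 43.3% were called. Maf, a transcription factor of these cells, had 1193, 1292 and 1315 scaled counts in the selenite group, 979, 970.0 and 978 in β-CYP, and 1169.6, 1253 and 1283 in control. It was lowest in β-CYP without overlap, falling in β-CYP against control (log2 change -0.34, adjusted p = 0.00193) and rising in the selenite group against β-CYP (log2 change 0.38, adjusted p = 0.000724). Ehd3, which takes part in endosomal recycling, had 1892, 1968 and 2008 scaled counts in the selenite group, 2028, 2032 and 2029 in β-CYP, and 2778, 2735 and 2612 in control. It fell in both treated groups against control (log2 change -0.42, adjusted p = 5.67e-05 in β-CYP and log2 change -0.47, adjusted p = 1.20e-05 in the selenite group). Cd36, a scavenger receptor and fatty acid transporter that hepatocytes also express, averaged 557 ± 72.4 scaled counts in the selenite group, 1125 ± 72.6 in β-CYP and 879.9 ± 8.82 in control and fell in the selenite group against β-CYP (log2 change -1.02, adjusted p = 2.25e-05). The chemokine-binding receptor Gpr182 averaged 853 ± 39 scaled counts in the selenite group, 1086 ± 32.5 in β-CYP and 917 ± 40.9 in control and rose in β-CYP against control (log2 change 0.24, adjusted p = 0.0151).

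Kdr (ENSMUSG00000062960) encodes VEGFR2, the main signalling receptor for VEGF-A. Kdr had 1461, 1654 and 1522 scaled counts in the selenite group, 1560.2, 1526 and 1616 in β-CYP, and 1817, 1804 and 1849 in control. All 3 controls were above all 6 treated libraries, and both treated groups overlapped. Kdr fell in β-CYP against control (log2 change -0.22 ± 0.051 (SE), adjusted p = 0.0161) and in the selenite group against control (log2 change -0.24 ± 0.051 (SE), adjusted p = 0.00581), and was not called between the selenite group and β-CYP (log2 change -0.022 ± 0.051 (SE), 95% interval -0.14 to 0.093, adjusted p = 0.827). The call in β-CYP was lost with equal totals (-0.21) and without control replicate 3 (-0.21) or β-CYP replicate 1 (-0.22) or 2 (-0.20), with adjusted p 0.00767 to 0.0849 over all alternatives. The call in the selenite group was lost with equal totals (-0.10, adjusted p = 0.303, range 0.00194 to 0.303).

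Of 13 VEGF and angiopoietin ligands and receptors, 1 rose and 2 fell in β-CYP against control, 1 rose and 2 fell in the selenite group against β-CYP, and 0 rose and 3 fell in the selenite group against control (median log2 changes -0.0016, 0.090 and 0.080, in that order). Vegfa, the ligand of VEGFR2, averaged 1477 ± 76.4 scaled counts in the selenite group, 1386 ± 14 in β-CYP and 1718 ± 31.9 in control, and fell in both treated groups against control (log2 change -0.31, adjusted p = 0.00128 in β-CYP and log2 change -0.22, adjusted p = 0.0056 in the selenite group). The receptor Tek, known as TIE2, averaged 482 ± 19.6 scaled counts in the selenite group, 417 ± 20.7 in β-CYP and 520.1 ± 39.8 in control and fell in β-CYP against control (log2 change -0.32, adjusted p = 0.0199). Its orphan relative Tie1 averaged 462 ± 80.2 scaled counts in the selenite group, 653 ± 37.8 in β-CYP and 654 ± 31.6 in control and fell in the selenite group against β-CYP (log2 change -0.51, adjusted p = 0.00881).

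Pecam1 (ENSMUSG00000020717), a junction molecule of endothelium, platelets and leukocytes, had 893, 751 and 753 scaled counts in the selenite group, 949.6, 934 and 912 in β-CYP, and 695, 632 and 777 in control. The β-CYP libraries were above all others, and the selenite and control libraries overlapped. Pecam1 rose 1.33-fold in β-CYP against control (log2 change 0.41 ± 0.09 (SE), adjusted p = 0.0113). It was not called in the selenite group against β-CYP (log2 change -0.23 ± 0.09 (SE), adjusted p = 0.106) or against control (log2 change 0.19 ± 0.09 (SE), adjusted p = 0.157). Without selenite replicate 1, the highest of its group, it fell in the selenite group against β-CYP, with a log2 change of -0.31 (adjusted p = 0.0355, range 0.0355 to 0.604).

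Vwf (ENSMUSG00000001930), the multimeric protein that tethers platelets to a damaged vessel wall, is made by endothelium of larger vessels and by megakaryocytes more than by healthy sinusoids. Vwf had 285, 331 and 357 scaled counts in the selenite group, 446, 369 and 454 in β-CYP, and 222, 340.2 and 258 in control. The β-CYP libraries were above all others, and the selenite libraries overlapped the controls, which varied most. Vwf rose 1.56-fold in β-CYP against control (log2 change 0.64 ± 0.16 (SE), adjusted p = 0.0222). The call was lost when only these groups were fitted (0.64) and without control replicate 1 (0.50) or 3 (0.61) or β-CYP replicate 1 (0.60) or 3 (0.59), with adjusted p 0.00589 to 0.0802 over all alternatives. It was not called in the selenite group against β-CYP (log2 change -0.38 ± 0.16 (SE), adjusted p = 0.127) or against control (log2 change 0.26 ± 0.16 (SE), adjusted p = 0.266). Vwf over Kdr was 0.195, 0.2 and 0.235 in the selenite group, 0.286, 0.241 and 0.281 in β-CYP and 0.122, 0.189 and 0.14 in control, with the 3 groups separate (exact permutation p = 0.1 in each comparison, the smallest possible). Platelet markers summed to 109.6 to 128 in the selenite group, 96.7 to 115 in β-CYP and 76.5 to 102 in control, and of 4 tested, 1 rose and 0 fell in β-CYP against control. This was the platelet chemokine Ppbp (log2 change 1.17, adjusted p = 0.0472), while the platelet integrin Itga2b was not called (log2 change 0.024, adjusted p = 0.975). The part of platelets in the Vwf and Pecam1 results was not tested.

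Of 7 genes of capillary and large vessel endothelium, 2 rose in β-CYP against control, 0 were called by limma in the selenite group against β-CYP (1 at an unadjusted p under 0.05), and 3 rose in the selenite group against control, with 0 falling in any (median log2 changes 0.23, -0.10 and -0.013, in that order). Plvap, which forms the diaphragms of capillary fenestrae, averaged 1069 ± 32.1 scaled counts in the selenite group, 1142 ± 45.1 in β-CYP and 921 ± 28.7 in control and rose in β-CYP against control (log2 change 0.31, adjusted p = 0.00228). Ly6a, an interferon-responsive surface antigen of many cells, averaged 3041 ± 1316 scaled counts in the selenite group, 1473 ± 610.2 in β-CYP and 468 ± 93.5 in control and rose in the same comparison (log2 change 1.57, adjusted p = 0.0281). Cd34, a marker of capillarised sinusoids, averaged 56.6 ± 10.5 scaled counts in the selenite group, 63.6 ± 18.4 in β-CYP and 58.1 ± 15.7 in control and was not called (log2 change 0.12, adjusted p = 0.845).

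Of 8 endothelial adhesion genes tested, 2 rose and 0 fell in β-CYP against control, 4 rose and 1 fell in the selenite group against β-CYP, and 3 rose and 0 fell in the selenite group against control (median log2 changes 0.13, 0.38 and 0.37, in that order). The leukocyte ligand Icam1 averaged 1087 ± 60.9 scaled counts in the selenite group, 897 ± 13.4 in β-CYP and 477 ± 20.3 in control. It rose in β-CYP against control (log2 change 0.91, adjusted p = 4.55e-06) and in the selenite group against β-CYP (log2 change 0.27, adjusted p = 0.0079). Vcam1, another leukocyte ligand, averaged 791 ± 20.4 scaled counts in the selenite group, 561 ± 18.8 in β-CYP and 485 ± 54.9 in control and rose in the selenite group against β-CYP (log2 change 0.50, adjusted p = 0.00171). Jam2, a junction molecule of the same list, averaged 663 ± 46.9 scaled counts in the selenite group, 1017 ± 105 in β-CYP and 561 ± 109 in control, rising in β-CYP against control (log2 change 0.87, adjusted p = 0.0014) and falling in the selenite group against β-CYP (log2 change -0.61, adjusted p = 0.00758).

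Of 7 genes in a list of haemostasis, 2 rose and 0 fell in β-CYP against control, 1 rose and 1 fell in the selenite group against β-CYP, and 1 rose and 1 fell in the selenite group against control (median log2 changes 0.16, 0.25 and 0.41, in that order). Its member thrombomodulin (Thbd), the endothelial anticoagulant receptor, averaged 77.3 ± 9.75 scaled counts in the selenite group, 124 ± 19.9 in β-CYP and 72.4 ± 6.23 in control, rising in β-CYP against control (log2 change 0.76, adjusted p = 0.0142) and falling in the selenite group against β-CYP (log2 change -0.67, adjusted p = 0.0188).

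Bmp2 (ENSMUSG00000027358), a BMP ligand that sinusoidal cells send to hepatocytes, had 395, 348 and 368 scaled counts in the selenite group, 371, 444 and 448 in β-CYP, and 486, 493 and 409 in control. The selenite libraries were below all controls, and β-CYP overlapped both. Bmp2 fell in the selenite group against control, just past the threshold (log2 change -0.32 ± 0.1 (SE), adjusted p = 0.0475), and was called neither in β-CYP against control (log2 change -0.14 ± 0.1 (SE), adjusted p = 0.466) nor in the selenite group against β-CYP (log2 change -0.18 ± 0.1 (SE), adjusted p = 0.265). The call was lost in 9 of 17 alternatives: with equal totals (-0.18), with no filter on low values, with only these groups fitted and with a replicate block (-0.32 in these 3), and without control replicate 1 (-0.28) or 2 (-0.27) or any selenite library (-0.37, -0.27 and -0.31), with adjusted p 0.023 to 0.242 over all alternatives.

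Of 11 angiocrine ligands, 0 were called by limma in β-CYP against control (0 at an unadjusted p under 0.05), 4 rose and 0 fell in the selenite group against β-CYP (Hgf, Bmp6, Bmp4 and Kitl), and 1 rose against control (Hgf) (median log2 changes -0.19, 0.43 and 0.27, in that order). Bmp6, the other endothelial ligand that drives hepcidin, averaged 133 ± 19.6 scaled counts in the selenite group, 66.4 ± 20.6 in β-CYP and 88.2 ± 15.2 in control (log2 change 1.02, adjusted p = 0.0121 in the selenite group against β-CYP). Of 21 genes of BMP signalling and hepcidin, 4 rose and 4 fell in β-CYP against control, 6 rose and 3 fell in the selenite group against β-CYP, and 5 rose and 5 fell in the selenite group against control (median log2 changes -0.13, 0.13 and 0.14, in that order). Hamp, the hepcidin gene, had 15368, 16213 and 16208 scaled counts in the selenite group, 7103, 7369 and 7195 in β-CYP, and 7401, 7497 and 7529 in control. The selenite libraries were far above the other 6 (log2 change 1.14, adjusted p = 3.52e-09 in the selenite group against β-CYP), while β-CYP and control were not called apart (log2 change -0.050, adjusted p = 0.299). Its close copy Hamp2 averaged 55.4 ± 12.5 scaled counts in the selenite group, 58.7 ± 4.48 in β-CYP and 186 ± 9.84 in control and fell in β-CYP against control (log2 change -1.65, adjusted p = 0.000204). Reads shared between these close copies were counted in a way not given in the sources used here. Id1, a target of BMP signals, averaged 91.6 ± 16.5 scaled counts in the selenite group, 71 ± 4.86 in β-CYP and 30.6 ± 4.71 in control and rose in β-CYP against control (log2 change 1.20, adjusted p = 0.00276). The direction of such targets was mixed. Id2 (log2 change 1.01, adjusted p = 1.70e-07) and Id3 (log2 change 0.82, adjusted p = 0.000949) also rose in that comparison. Atoh8 averaged 375 ± 44.1 scaled counts in the selenite group, 320.2 ± 7.35 in β-CYP and 570.2 ± 7.88 in control and fell in β-CYP against control (log2 change -0.83, adjusted p = 0.000153). The inhibitory Smad7 was not called in that comparison (log2 change -0.20, adjusted p = 0.286). In the selenite group against β-CYP, Smad7 rose (log2 change 0.47, adjusted p = 0.0118). Id1 (0.35, adjusted p = 0.268), Id2 (-0.035, adjusted p = 0.621), Id3 (0.24, adjusted p = 0.177) and Atoh8 (0.22, adjusted p = 0.112) were not called there.

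**Figure D3:**
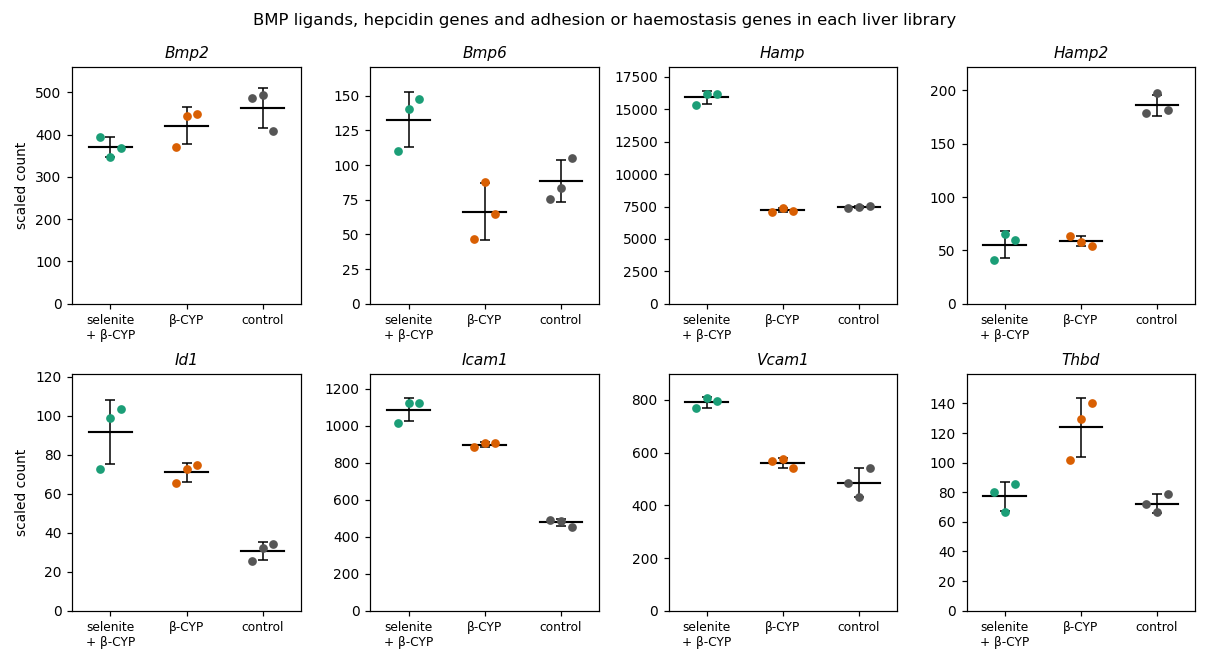
Scaled counts (y axis, from 0) of Bmp2, Bmp6, Hamp, Hamp2, Id1, Icam1, Vcam1 and Thbd in the selenite group, in β-CYP and in control (x axis); points are libraries, long bars means and whiskers SD (n = 3). Bmp2 is lower in the selenite group than in control, while Hamp lies at 15368 to 16213 in the selenite group and at 7103 to 7529 in the other libraries.

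Among 21 genes shared by endothelia, 1 rose and 1 fell in β-CYP against control, 3 rose and 6 fell in the selenite group against β-CYP, and 2 rose and 5 fell in the selenite group against control. Their median log2 changes were -0.0016, -0.13 and -0.11 in that order. Of all genes tested, 16.3%, 23.9% and 28.9% were called in these comparisons, with medians of -0.0013, 0.017 and 0.027. Cdh5, the junction molecule VE-cadherin, averaged 1380.4 ± 112 scaled counts in the selenite group, 1116 ± 59.7 in β-CYP and 1146 ± 10.8 in control and rose in the selenite group against β-CYP (log2 change 0.30, adjusted p = 0.00695). S1pr1, a receptor for sphingosine-1-phosphate, averaged 1307 ± 82 scaled counts in the selenite group, 1702 ± 58.9 in β-CYP and 1781 ± 52.6 in control and fell in the same comparison (log2 change -0.38, adjusted p = 0.00063). Esam, another junction molecule, averaged 328 ± 19.6 scaled counts in the selenite group, 398 ± 16.6 in β-CYP and 247 ± 35.3 in control and rose in β-CYP against control (log2 change 0.69, adjusted p = 0.0016).

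Of 10 other scavenger and endocytic receptors, 2 rose and 1 fell in β-CYP against control, 4 rose and 2 fell in the selenite group against β-CYP, and 4 rose and 3 fell in the selenite group against control (median log2 changes -0.046, 0.064 and 0.066, in that order). The haemoglobin receptor Cd163, a macrophage gene, averaged 918 ± 43.4 scaled counts in the selenite group, 152 ± 9.49 in β-CYP and 447 ± 10.1 in control, falling in β-CYP against control (log2 change -1.55, adjusted p = 4.56e-07) and rising in the selenite group against β-CYP (log2 change 2.59, adjusted p = 7.91e-09). Colec12, a scavenger receptor with a collagen domain, averaged 1203 ± 67 scaled counts in the selenite group, 1550.0 ± 32 in β-CYP and 1529.8 ± 28.3 in control and fell in the selenite group against β-CYP (log2 change -0.37, adjusted p = 0.00044). The mannose receptor Mrc1 averaged 1859 ± 69.5 scaled counts in the selenite group, 1883 ± 52.7 in β-CYP and 2034 ± 89.4 in control and was not called (log2 change -0.019, adjusted p = 0.844 in the selenite group against β-CYP).

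Of 7 stellate cell markers, 2 rose and 1 fell in β-CYP against control and in the selenite group against β-CYP, with sums of 8799 to 9031 in the selenite group, 8631 to 8991 in β-CYP and 7981 to 8488 in control. Of 5 hepatocyte markers, 3 rose and 0 fell in β-CYP against control, and 0 rose and 4 fell in the selenite group against β-CYP. All 10 pancreatic acinar markers rose in the selenite group against β-CYP and against control, with sums of 30259 to 31187 in the selenite group, 1158 to 1234 in β-CYP and 983 to 1157 in control. In β-CYP and control, most of that sum was Cela1, and Prss2, Cpa1, Cpb1, Cela3b and Pnlip were at 0 in all 6 libraries. The part of non-liver tissue in the selenite results was not tested.

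**Figure D4:**
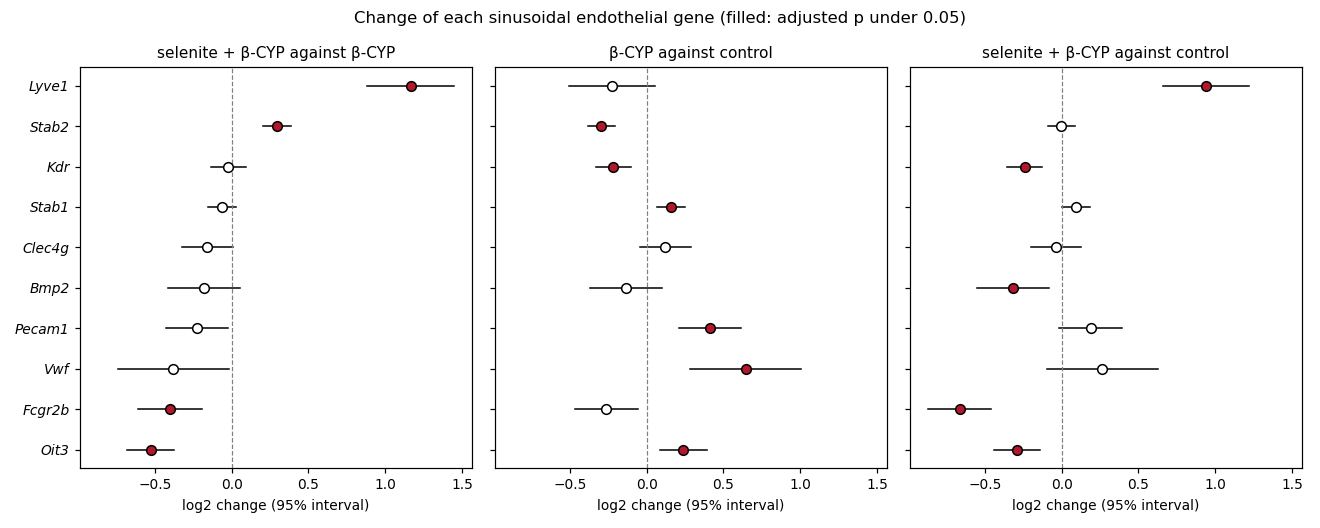
Log2 change (x axis) of each of the 10 genes (y axis) for the selenite group against β-CYP, β-CYP against control and the selenite group against control, with 95% intervals from limma. Filled points have an adjusted p under 0.05. Lyve1 stands furthest out, at 1.17 in the selenite group against β-CYP and 0.94 against control.

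The genes with the most similar profile over the 9 libraries were found among 10510 genes by the root mean square difference of log2 values centred on each gene's mean. In brackets is this difference, set against the root mean square spread of the endothelial gene about its own mean. The nearest to Stab2 was Gcn1l1 (0.032, against 0.14). Oit3 was nearest to Tm7sf3 (0.036, against 0.23), Fcgr2b to Abca2 (0.074, against 0.29) and Vwf to Tnfaip3 (0.13, against 0.32). Stab1 was nearest to Serping1 (0.016, against 0.072), Clec4g to Rab11b-ps2 (0.037, against 0.11) and Kdr to Vipr1 (0.032, against 0.12). Pecam1 was nearest to Rtfdc1 (0.074, against 0.20) and Bmp2 to Kif16b (0.065, against 0.17). Within the 10, the closest pair was Stab1 and Clec4g, at 0.10, and the most distant was Lyve1 and Fcgr2b, at 0.77. The mean profile of the 10 was nearly flat, with a spread of 0.034. The 5 genes nearest to it, Tusc2, Itga1, Psmb3, Rnaseh2a and Smarce1, differed from it by 0.025 to 0.030, which is nearly as much as that spread. This measure is a description over libraries that share their groups.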

How the data were processed

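RNA sequencing of 9 liver libraries in 3 groups was used. HISAT, Cufflinks and build mm9 are named per the submitters' processing notes, with no version or role. The authors deposited log2 values per gene. These equal log2(reads divided by a size factor, plus 1): undoing this gave whole reads, within 0.02, for 100% of values in each library, and the factors equal median-of-ratios factors. Such scaling assumes that most genes do not change.

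Tests used limma 3.58.1 in R 4.3.3. The means of 3 groups were fitted on log2(scaled count + 1) in 1 model of the 9 libraries, with empirical Bayes moderation and a trend on intensity. Genes averaging 1 scaled count or more were kept (20145), and two-sided p-values were adjusted over them by Benjamini-Hochberg, with 0.05 as threshold. Fold changes of low genes are understated on this scale. The model was run on simulated counts with the same spread setting for every gene and changes in β-CYP only. Such counts cannot show how the model performs with the spread and composition of these libraries. The 10 members and the lists of related genes were chosen with earlier results of these data known. Some genes, such as Cd36, Mrc1, Tek, Tie1, Bmp4, Bmp6 and Marco, are in more than 1 list, so the counts of the lists are not independent. Genes named from a list are examples among those past the threshold and leading markers of other cell types. Ccl21a, Mmrn1, Pdpn, Itga2b, Cd34 and Mrc1 are named although they were not called. Alternatives were other scalings, filters and pseudocounts, voom weights on the recovered reads, a fit of only the groups compared, a replicate block, and leaving out each library. Ratios within a library were tested with exact permutation tests. Depth limits Lyve1 and Vwf most, with 184 to 575 and 219 to 491 reads per library. Some items of the lists and of the likeness measure are withheld for evaluation and are not reported here.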

Additional observations from a re-analysis of the deposited data

How the results depend on the processing

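Counts of genes past the threshold stayed within 1.5 times the main count in all 3 comparisons. Of the calls on the 10 genes, 2 of 6 in β-CYP against control (Stab2, Pecam1), 3 of 4 in the selenite group against β-CYP (Stab2, Lyve1, Oit3) and 2 of 5 in the selenite group against control (Lyve1, Fcgr2b) held under all 17 alternatives. All values below are log2 changes, and where the construction of an alternative does not show why a value moved, the cause was not tested. With equal totals, which counts the reads of AY036118, calls were lost in β-CYP against control for Kdr (-0.21), Oit3 (0.25) and Stab1 (0.17), in the selenite group against β-CYP for Fcgr2b (-0.27), and in the selenite group against control for Bmp2 (-0.18), Kdr (-0.10) and Oit3 (-0.15). Against control, Stab1 gained a call (0.23, and 0.14 with quantile normalization), and the sign turned for Clec4g (0.10, and 0.018 with quantiles) and Stab2 (0.14, and 0.090 with quantiles). Against β-CYP it turned for Kdr (0.10, and 0.010 with quantiles) and Stab1 (0.062). Less the shift of the median gene under equal totals, these were -0.052 for Clec4g and -0.018 for Stab2 against control, and -0.032 for Kdr and -0.075 for Stab1 against β-CYP, with the sign of the main values. Less the same shift, Fcgr2b, which lost its call against β-CYP, was at -0.41, beside -0.40 in the main fit. Against control, Bmp2, Kdr and Oit3, which lost their calls, were at -0.33, -0.26 and -0.31, beside -0.32, -0.24 and -0.29. Stab1, which gained a call against control, was at 0.079, beside 0.095. The values less the shift were not tested. When only the groups compared were fitted, with fewer libraries, Fcgr2b gained a call in β-CYP against control (-0.26), and calls were lost for Vwf there (0.64), for Fcgr2b against β-CYP (-0.40) and for Bmp2 against control (-0.32). Oit3 in β-CYP against control lost its call with equal medians (0.23) and with no filter (0.24), as did Bmp2 in the selenite group against control with no filter (-0.32). The labels do not say that replicate numbers pair the libraries. Deviations from the group means correlated at -0.0368 to 0.0722 for same-numbered libraries (9 pairs) and at -0.0742 to 0.0736 for others (18 pairs). Deviations within a group are tied to each other, so these ranges cannot show whether the libraries are paired. With a replicate block, 2956, 4481 and 5506 genes were called in place of 3285, 4805 and 5823, and Oit3 in β-CYP against control (0.24, adjusted p = 0.0591) and Bmp2 in the selenite group against control (-0.32, adjusted p = 0.0855) lost their calls; the block changed no other call on the 10 genes. Leaving out each library in turn changed calls or signs for some genes, with ranges in β-CYP against control of -0.24 to -0.20 for Kdr, 0.21 to 0.26 for Oit3, 0.15 to 0.18 for Stab1 and 0.50 to 0.81 for Vwf, in the selenite group against control of -0.40 to -0.27 for Bmp2 and -0.036 to 0.027 for Stab2, and in the selenite group against β-CYP of -0.23 to -0.12 for Clec4g, -0.072 to 0.018 for Kdr and -0.31 to -0.18 for Pecam1. Where this leaves 2 libraries in a group, the shared fit assumes that they vary like the others.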
